A study of Homo sapiens with 18 samples.

Results

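The 9 genes described here are the epithelial splicing and transcription regulators ESRP1, ESRP2, GRHL1, GRHL2, GRHL3, OVOL1, EHF, ELF3 and ELF5. They were taken by name from the annotation of the array, and each was read by the probe set with the highest mean log2(intensity + 1) over the 18 arrays, whatever its differences between groups. Of the 9, 8 had a probe set annotated to that gene alone, against 19775 genes in all with such a probe set. ESRP2 shares its only probe set with a microRNA gene, MIR6773, and was therefore not read. That shared probe set was not silent, at a log2 of 7.33 to 9.38 over the 18 arrays (mean 8.595). Its differences between groups were not tested. The chosen probe sets of GRHL2 and ELF5 lay under the level set for testing (a mean log2 of 3.93, intensity 14.3), so that 6 of the 9 were among the 12171 genes tested.

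Expression had been measured on Affymetrix HG-U133 Plus 2.0 arrays in 3 lines of the same origin, each as CD10+ sorted, CD10- sorted and unsorted cells. There were 9 groups of 2 arrays. CD10, encoded by MME, is a cell surface peptidase, and cells had been sorted by flow cytometry with an antibody to it. M1B26 and MC26 were derived from MCF10A by long exposure to BMP2 and IL6, M1B26 after a sort of cells carrying the receptor BMPR1B and after a selection of clones in soft agar, so it stands for few founder cells. MCF10A-CT, the untreated MCF10A, was the control. MCF10A is an immortalised, nonmalignant human mammary epithelial line that lacks CDKN2A and carries an amplified MYC, and all 3 lines share this. IL6 was given to M1B26 and MC26 at 10 ng/ml, while the labels give BMP2 at both 5 ng/ml and 10 ng/ml. By the labels the medium of all lines held EGF (20 ng/ml), insulin (10 µg/ml), hydrocortisone (0.5 µg/ml), cholera toxin (100 ng/ml) and horse serum (2%). The methods of the paper give 5% horse serum for the culture of MCF10A. The labels call the 2 arrays of a group biological replicates without saying how their cultures were separated, so p-values measure the spread between these arrays.

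ESRP1 and ESRP2 are RNA-binding proteins of epithelial cells that direct the splicing of FGFR2, CD44, CTNND1 and other transcripts to their epithelial forms. GRHL1, GRHL2 and GRHL3 are grainyhead-like transcription factors that maintain junctions and barrier in surface epithelia. OVOL1 is a zinc finger repressor that, like its relative OVOL2, holds down ZEB1 and other mesenchymal genes. EHF, ELF3 and ELF5 are the epithelium-specific members of the ETS family, and ELF5 is known in the mammary gland for driving the alveolar fate of luminal progenitors. The repressors ZEB1, ZEB2 and SNAI2 act on many of the same junction genes in the opposite direction.

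The keratins KRT5, KRT7, KRT14, KRT8 and KRT18 were over the level in all groups, as were CDH1 and EPCAM, which were however much lower in CD10+ M1B26 cells (CDH1 39.6 and 54.2, EPCAM 111 and 190) than on the other 16 arrays (481 to 1784 and 529 to 3620). Of 11 epithelial markers 8 were read, and 7 of these lay over the level in every group, with a mean log2 value over the list of 9.06 to 9.09 in M1B26 CD10+ cells and 9.75 to 10.58 elsewhere. KRT19, the marker under the level, is a luminal keratin. The mean over 10 mesenchymal and fibroblast markers was 8.22 to 8.63 in M1B26 CD10+ cells and 4.68 to 6.66 in the other groups, the 4.68 and the 6.66 both being unsorted MC26 arrays. Of 5 leukocyte markers read, 3 or 4 had a mean over the level in each group (array means over the list 3.84 to 5.46), CD14, CD79A and ITGAM in all 9, and of 4 endothelial markers 1 or 2 did (2.02 to 3.66), PECAM1 in all 9. The defining markers PTPRC, CDH5 and VWF lay under the level on all arrays, and CD3E reached a log2 of 4.94. The part of these in the results was not tested. MME itself averaged 1145 ± 175 in CD10+ and 36.2 ± 28.6 in CD10- cells of M1B26, 80.3 ± 14.8 and 17.1 ± 15.2 in MC26, and 56.7 ± 11.8 and 10.5 ± 1.07 in MCF10A-CT (intensity, SD, n = 2 each). In such bulk samples fewer cells of a type and less RNA per cell cannot be told apart. Arrays of one group correlated at 0.949 to 0.979 over the genes tested.

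RefSeq start sites were searched in 7 windows of 5 of the 9 genes, which run from 250 bases before to 50 bases after a start. ESRP1 and GRHL2 were left out of the search by rule, so their absence says nothing about their start sites. ESRP2 and OVOL1 had no matched window. The windows of GRHL3, ELF3, EHF and GRHL1 are shown because these are the transcription factors whose levels differed between groups below. The E-box CAGGTG, searched on both strands (CACCTG on the other), is the core motif of the ZEB and SNAI repressors and is written in capitals. Coordinates are those of GRCh38.p14, and all 4 windows lie on the plus strand.
GRHL3, chr1:24319107-24319406: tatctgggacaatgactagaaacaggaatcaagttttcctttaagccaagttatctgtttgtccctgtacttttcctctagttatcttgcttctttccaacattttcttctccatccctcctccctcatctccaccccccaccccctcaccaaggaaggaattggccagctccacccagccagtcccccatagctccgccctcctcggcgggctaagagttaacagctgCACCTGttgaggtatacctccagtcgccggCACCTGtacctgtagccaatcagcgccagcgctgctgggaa
ELF3, chr1:202010337-202010636: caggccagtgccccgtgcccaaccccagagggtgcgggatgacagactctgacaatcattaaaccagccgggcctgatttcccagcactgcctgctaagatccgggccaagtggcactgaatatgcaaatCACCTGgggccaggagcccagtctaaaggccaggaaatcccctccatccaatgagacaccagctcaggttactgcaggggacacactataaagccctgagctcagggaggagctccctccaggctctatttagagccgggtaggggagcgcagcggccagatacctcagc
EHF, chr11:34624007-34624306: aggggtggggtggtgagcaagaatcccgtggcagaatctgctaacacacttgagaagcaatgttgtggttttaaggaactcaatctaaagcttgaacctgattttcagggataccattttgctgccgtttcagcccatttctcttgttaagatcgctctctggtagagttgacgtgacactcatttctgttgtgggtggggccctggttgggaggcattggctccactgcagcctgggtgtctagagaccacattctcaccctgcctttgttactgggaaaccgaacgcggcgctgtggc
GRHL1, chr2:9951443-9951742: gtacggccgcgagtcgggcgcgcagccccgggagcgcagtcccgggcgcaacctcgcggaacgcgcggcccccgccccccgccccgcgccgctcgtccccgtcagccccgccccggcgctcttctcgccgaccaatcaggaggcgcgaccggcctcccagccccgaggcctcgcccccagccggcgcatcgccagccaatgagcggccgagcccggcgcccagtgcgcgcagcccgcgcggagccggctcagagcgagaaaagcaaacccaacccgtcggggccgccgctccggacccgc
The GRHL3 window held the motif at bases 230 and 260 and the ELF3 window at base 131, counted from the 5′ end of the window, and the ELF5 window (chr11:34511675-34511974, minus strand), not shown, held it at base 252. The windows of EHF and GRHL1 held none in these letters, nor did those of the other start of GRHL3 (chr1:24322790-24323089) and of EHF (chr11:34632316-34632615). Over all 35116 RefSeq windows of this length, 20.6% held the motif at least once, against 3 of these 7, and a match is a description of these letters only.

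ESRP1, the splicing regulator, was by far lowest in the CD10+ cells of M1B26, with the CD10- cells of M1B26 next. Its intensity was 44.3 and 64.5 on the 2 arrays of CD10+ M1B26 cells, against 438 and 508 on those of CD10- M1B26 cells. In MC26 it was 789 and 662 in CD10+ and 1006 and 729 in CD10- cells, and in MCF10A-CT 1036 and 1275 in CD10+ and 1064 and 1464 in CD10- cells. The CD10+ and CD10- arrays of M1B26 lay far apart, while those of MC26 and of MCF10A-CT overlapped. Unsorted cells gave 698 and 554 in M1B26, 1434 and 1016 in MC26 and 1176 and 896 in MCF10A-CT, so that unsorted M1B26 cells lay above both of their sorted fractions. In the order of the group means the neighbours overlapped from MCF10A-CT CD10- cells (10.29 ± 0.33, log2, SD, n = 2) down to unsorted M1B26 cells (9.28 ± 0.23), and only the last steps, to CD10- M1B26 (8.88 ± 0.15) and to CD10+ M1B26 cells (5.77 ± 0.38), were free of overlap.

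**Figure D1:**
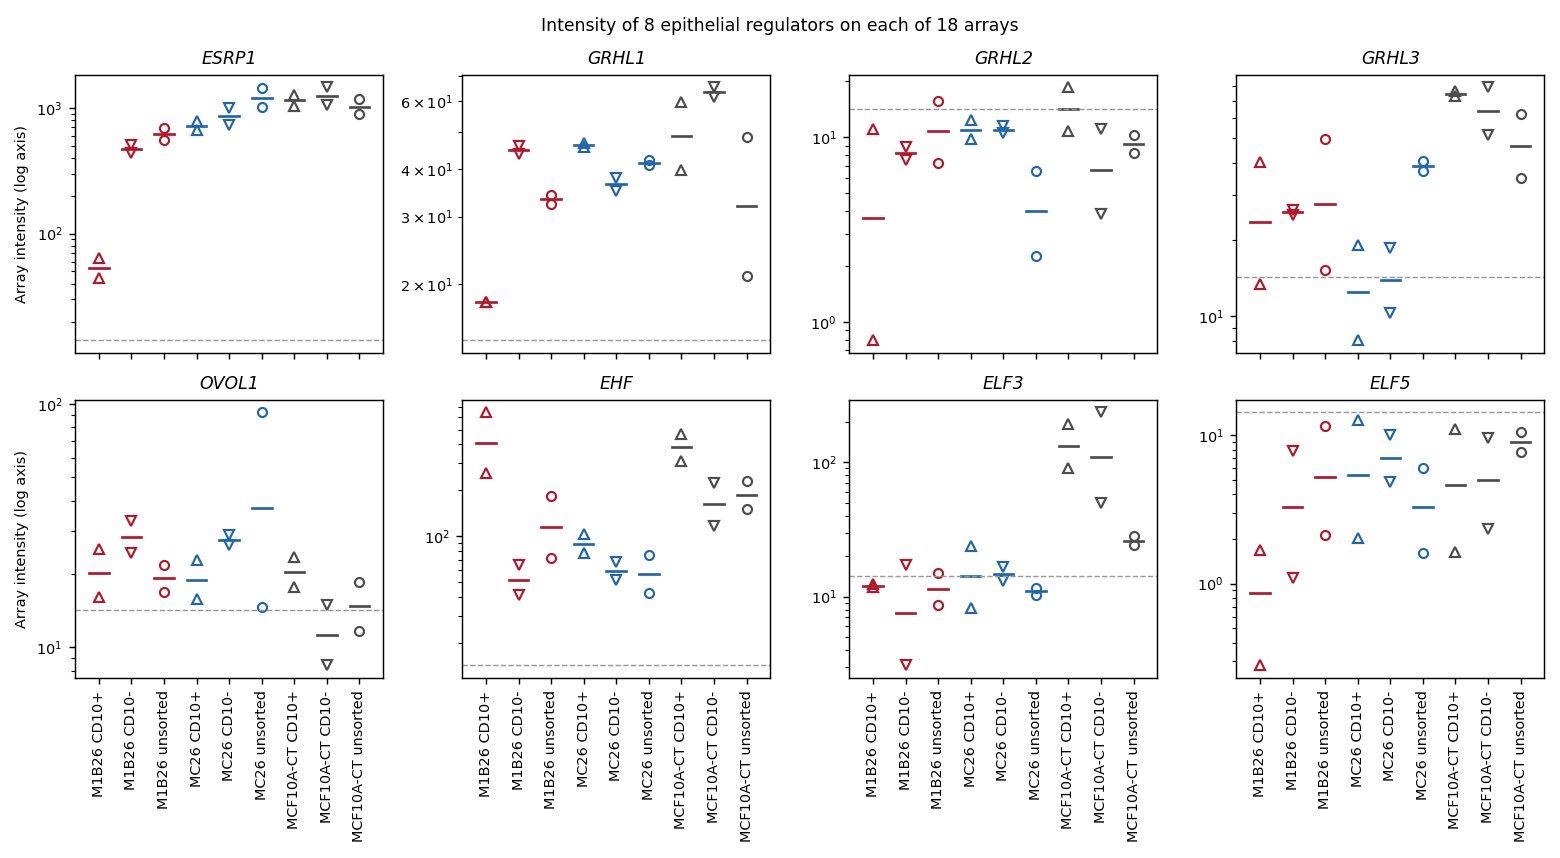
Intensity (log axis) of the 8 genes read on each of the 18 arrays, with 1 symbol per array (triangle up CD10+, triangle down CD10-, circle unsorted), a bar at the group mean of log2(intensity + 1) and a dashed line at the level for testing (14.3). ESRP1 lies at 44.3 and 64.5 in CD10+ M1B26 cells and at 438 or more on the other arrays, ELF3 lies highest in sorted MCF10A-CT cells, and GRHL2 and ELF5 lie around or under the dashed line.

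Between the CD10+ and CD10- cells of M1B26, where 6.5% of all genes tested passed an adjusted p of 0.05 (458 higher and 333 lower in CD10+ cells), 3 of the 6 regulators passed. ESRP1 fell by 3.12 ± 0.27 on the log2 scale (± SE), an 8.67-fold lower value (95% interval -3.68 to -2.55, adjusted p = 5.55e-06). Its other probe set fell by 3.18 ± 0.39 (adjusted p = 0.000155 in a fit over all probe sets), at 14.9 and 38.4 in CD10+ and 212 and 241 in CD10- cells. The call held when each of the 4 arrays was left out in turn and under every other setting tried, with a largest adjusted p of 0.000287.

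EHF moved the other way. Its intensity was 649 and 258 in CD10+ M1B26 cells, against 64.6 and 41.1 in CD10- M1B26 cells. It rose by 2.97 ± 0.50 on the log2 scale (95% interval 1.90 to 4.03, 7.81-fold, adjusted p = 0.00173), and the 2 pairs of arrays lay apart. The call held in all 11 settings that could be run for it, with a largest adjusted p of 0.0397. None of the 5 other EHF probe sets, all with means under the level, passed in a fit over all probe sets (0.84 to 3.14, adjusted p of 0.103 to 0.773), although each was higher in CD10+ cells.

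GRHL1, which in skin controls desmosomal cadherins, fell with ESRP1. Its intensity was 17.97 and 17.98 in CD10+ M1B26 cells, against 43.8 and 45.9 in CD10- M1B26 cells, a log2 difference of -1.27 ± 0.35 (2.42-fold lower, 95% interval -2.03 to -0.52, adjusted p = 0.0429). Both arrays of CD10+ cells were the lowest of all 18. The call was lost without either CD10+ array (adjusted p of 0.19 and 0.183 without replicates 1 and 2) and without either CD10- array (0.119 and 0.173), as it was without any sorted MC26 or unsorted M1B26 array, while the value stayed at -1.31 to -1.24. The other GRHL1 probe set, with a mean under the level, gave -0.93 ± 0.92.

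The 3 remaining regulators did not pass in M1B26. ELF3 was at 12.4 and 11.8 in CD10+ and 3.09 and 17.1 in CD10- cells (0.60 ± 0.74, adjusted p = 0.739). GRHL3 was at 40.3 and 13.4 in CD10+ and 25.0 and 26.2 in CD10- cells (-0.12 ± 0.59, adjusted p = 0.948), and OVOL1 at 16.1 and 25.4 in CD10+ and 24.3 and 32.9 in CD10- cells (-0.46 ± 0.63, adjusted p = 0.769). The arrays of the 2 populations overlapped for all 3 genes. Their 95% intervals reached from -1.80 (OVOL1) to 2.18 (ELF3), which leaves room for changes of several fold. The median difference was -0.29 over the 6 regulators and 0.01 over all genes tested.

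In MCF10A-CT and in MC26 the CD10 comparison left not a single gene past the threshold (0% of those tested in each line, with 166 and 100 of the 12171 genes at an unadjusted p under 0.05), not even MME, the gene of the sorted protein. EHF was at 470.2 and 310.0 in CD10+ and 222 and 117 in CD10- cells of MCF10A-CT, without overlap (1.24 ± 0.50, 95% interval 0.17 to 2.30, unadjusted p = 0.0256, adjusted p = 1.00), the only regulator under an unadjusted p of 0.05. In MC26 it was at 77.0 and 103 in CD10+ and 67.4 and 51.2 in CD10- cells (0.59 ± 0.50, 95% interval -0.47 to 1.65). EHF belongs to a gene index that the study drew from the sorted MCF10A-CT arrays, so its direction in that line is no independent evidence. With same-numbered sorted arrays paired as a replicate block, EHF passed in MCF10A-CT (adjusted p = 3.74e-05), where 0.641% of the genes passed, and not in MC26 (adjusted p = 0.855). That fit took the variance of each gene wholly from the trend over all genes. ESRP1 differed by -0.12 ± 0.27 in MCF10A-CT (95% interval -0.69 to 0.45) and by -0.24 ± 0.27 in MC26 (95% interval -0.81 to 0.32), intervals that both end short of the fall in M1B26.

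**Figure D2:**
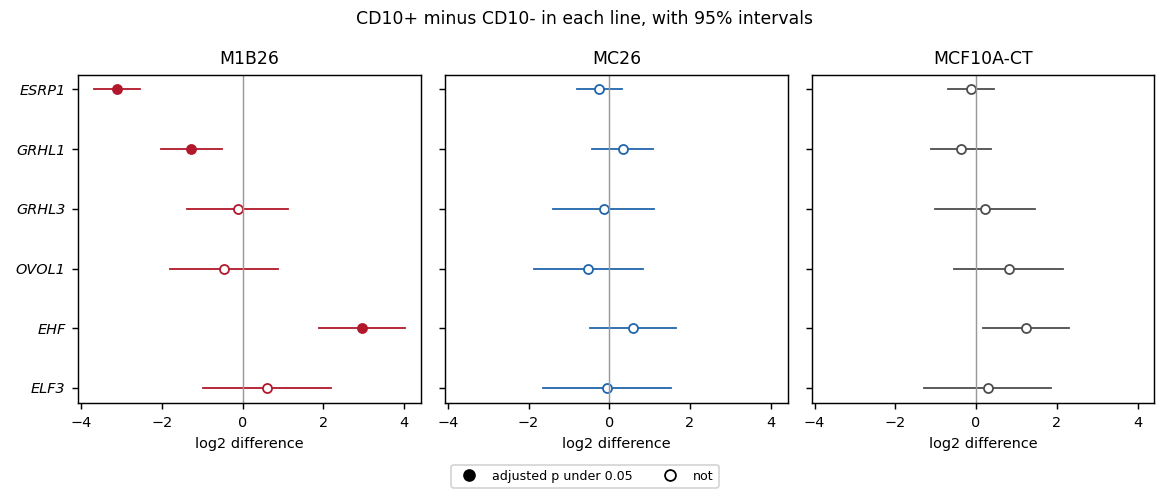
Log2 difference of CD10+ minus CD10- cells (x axis) of the 6 regulators tested in M1B26, MC26 and MCF10A-CT, with the fitted value as a circle (filled where the adjusted p was under 0.05) and its 95% interval as a line. ESRP1 at -3.12, GRHL1 at -1.27 and EHF at 2.97 are filled in M1B26, and no circle is filled in the other lines.

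The difference between lines was itself tested. The CD10 difference of ESRP1 in M1B26 was below that in MCF10A-CT by a log2 difference of -2.997 ± 0.38 (adjusted p = 0.000995) and below that in MC26 by -2.87 ± 0.38 (adjusted p = 0.00122), and it was the only regulator to pass, where 1.38% and 1.27% of all genes did. Both calls held in all 16 settings run for each, with largest adjusted p of 0.0104 and 0.0105. EHF differed by 1.73 ± 0.71 (adjusted p = 0.358) and 2.38 ± 0.71 (adjusted p = 0.138), and GRHL1 by -0.90 ± 0.50 (adjusted p = 0.557) and -1.60 ± 0.50 (adjusted p = 0.169). With the replicate block over the sorted arrays 2 and 3 regulators passed, EHF joining in both comparisons and GRHL1 in that with MC26, where 11.5% and 10.9% of all genes passed. Between MC26 and MCF10A-CT no gene passed (0%, with 83 genes at an unadjusted p under 0.05), and no regulator was among those 83.

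Averaged over the 3 lines, ESRP1 fell by 1.16 ± 0.15 (a log2 difference of -1.16, adjusted p = 0.00121) and EHF rose by 1.60 ± 0.29 (adjusted p = 0.0109), 2 of 6 regulators where 1.14% of all genes passed. Both rested on M1B26: over MCF10A-CT and MC26 alone ESRP1 differed by -0.18 and EHF by 0.91 (adjusted p = 1.00 each). Without CD10- M1B26 replicate 2 the average for EHF was 1.49 with an adjusted p of 0.0569.

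In the same comparison within M1B26 several repressors of the epithelial programme rose. Of 5 repressors tested 3 rose, ZEB2 by 5.35 ± 0.84 (adjusted p = 0.00100), ZEB1 by 2.89 ± 0.38 (adjusted p = 0.000201) and TWIST1 by 1.71 ± 0.44 (adjusted p = 0.0270), with a list median of 1.71, and none fell. ZEB2 was at log2 values of 7.86 and 8.30 in CD10+ cells, against an uneven 4.56 and 0.90 in CD10- cells, so the size of its difference is uncertain. Of 19 epithelial genes known as targets of the grainyhead, ETS or OVOL factors 11 fell and 2 rose, with a median of -1.96. Those with the smallest p were MAL2, a transport protein (-3.72 ± 0.23), CDH1, which encodes E-cadherin (-3.64 ± 0.24), CDS1 (-2.42 ± 0.20), the membrane protease ST14 (-3.63 ± 0.35), the tight junction gene MARVELD3 (-3.37 ± 0.34) and the adhesion gene EPCAM (-4.09 ± 0.46). CLDN7 and KRT8, a claudin and a keratin, were the 2 that rose, by 1.30 ± 0.32 and 0.94 ± 0.24. The keratins did not move together: KRT18 fell (-0.90 ± 0.18, adjusted p = 0.00644), and KRT5, KRT7 and KRT14 did not pass. OVOL2, the relative of OVOL1, fell by 2.45 ± 0.29 (a log2 difference of -2.45, adjusted p = 7.98e-05), 1 of 4 genes in its list to pass.

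**Figure D3:**
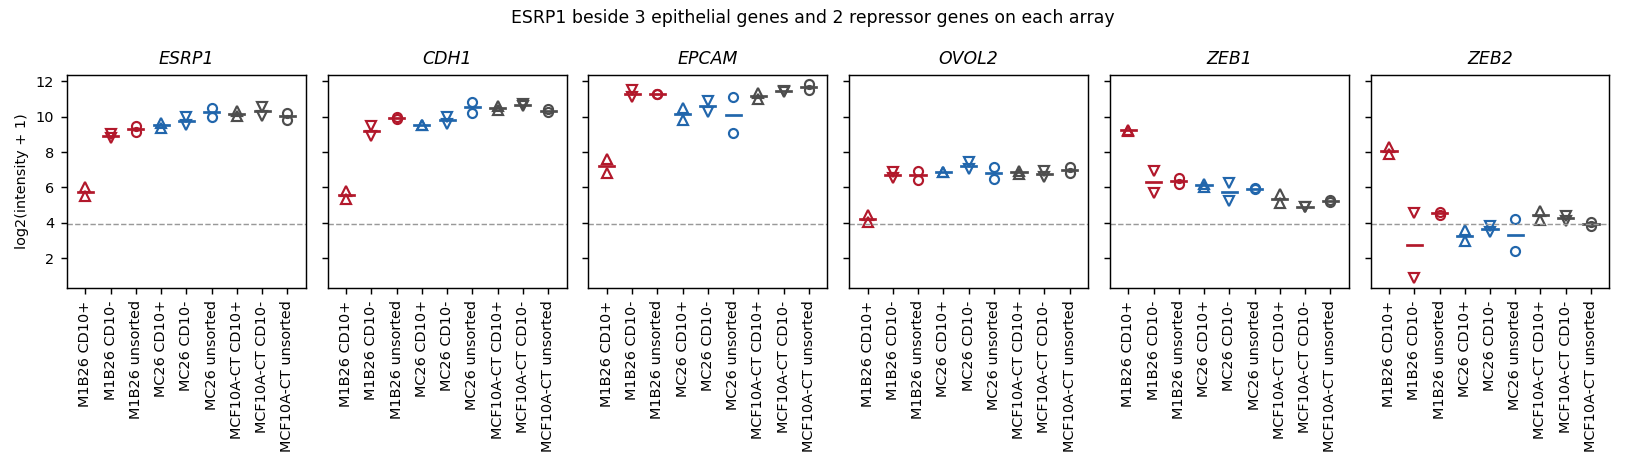
Log2(intensity + 1) of ESRP1, 3 epithelial genes (CDH1, EPCAM, OVOL2) and 2 repressor genes (ZEB1, ZEB2) on each of the 18 arrays, with 1 symbol per array (triangle up CD10+, triangle down CD10-, circle unsorted), a bar at the group mean and a dashed line at the level for testing (3.93). In CD10+ M1B26 cells ESRP1 (mean 5.77) and the 3 epithelial genes lie lowest and ZEB1 and ZEB2 highest of the 9 groups.

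Other members of the same families and the transcripts on which ESRP proteins act were also counted at gene level. Of 11 ESRP-spliced genes tested in M1B26, 1 passed between CD10+ and CD10- cells, the kinase gene SLK (-0.73 ± 0.18, adjusted p = 0.0203), and the median of the list was 0.14. The array reads whole genes here and not their splice forms. Of 11 other splicing regulators 1 rose, RBMS3 (2.35 ± 0.37, adjusted p = 0.00103), and none fell. Of 17 other ETS genes 1 fell, ETS2 (-2.10 ± 0.37, adjusted p = 0.00248), and none rose. These lists were chosen with earlier results of the data known, and their shares stand beside the 6.5% of all genes that passed.

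Between lines, regulators passed the test among sorted cells and none did among unsorted cells. For ELF3 the intensity was 12.4 and 11.8 in CD10+ M1B26 cells and 8.21 and 23.9 in CD10+ MC26 cells, against 91.4 and 195 in CD10+ MCF10A-CT cells. Among CD10- cells it was 3.09 and 17.1 in M1B26 and 13.1 and 16.6 in MC26, against 50.0 and 236 in MCF10A-CT. Every sorted MCF10A-CT array lay above every sorted array of the other lines. The other ELF3 probe sets, with means under the level, kept this order but not the size of the gap. Among CD10- cells one gave 20.6 and 17.2 in MC26 and 11.5 and 8.41 in M1B26, against 22.0 and 33.9 in MCF10A-CT. The other gave 5.63 and 6.13 in MC26 and 4.33 and 6.18 in M1B26, against 21.9 and 23.8 in MCF10A-CT. Unsorted cells gave 15.1 and 8.67 in M1B26 and 10.2 and 11.7 in MC26, against 28.2 and 24.1 in MCF10A-CT, again without overlap. ELF3 was near background, with a mean at or under 3.93, in 5 of the 9 groups (both unsorted derived lines, both sorted fractions of M1B26 and CD10+ MC26 cells), so the sizes of its differences are uncertain.

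Among CD10+ cells 26.4% of all genes passed between M1B26 and MCF10A-CT, and 3 of the 6 regulators did, all lower in M1B26. ESRP1 fell by 4.40 ± 0.27 (a log2 difference of -4.40, 21.1-fold, adjusted p = 1.12e-07), ELF3 by 3.36 ± 0.74 (-3.36, adjusted p = 0.00527) and GRHL1 by 1.39 ± 0.35 (-1.39, adjusted p = 0.0113). Without CD10+ MCF10A-CT replicate 2 ELF3 (-2.82, adjusted p = 0.0717) and GRHL1 (-1.10, adjusted p = 0.136) were lost, and without CD10+ M1B26 replicates 1 and 2 GRHL1 stood at adjusted p of 0.054 and 0.0696. GRHL3, at 40.3 and 13.4 in M1B26 against 73.4 and 76.8 in MCF10A-CT, missed the threshold (-1.64 ± 0.59, adjusted p = 0.0503). EHF stood at 649 and 258 in M1B26 against 470.2 and 310.0 in MCF10A-CT (0.10 ± 0.50, 95% interval -0.96 to 1.16).

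Between MC26 and MCF10A-CT among CD10+ cells, where 13.5% of all genes passed, ELF3 (-3.15 ± 0.74, adjusted p = 0.0136), GRHL3 (-2.49 ± 0.59, adjusted p = 0.0136) and EHF (-2.09 ± 0.50, adjusted p = 0.0148) were lower in MC26. GRHL3 was at 8.07 and 19.1 in CD10+ MC26 cells, against 73.4 and 76.8 in CD10+ MCF10A-CT cells. EHF was at 77.0 and 103 in CD10+ MC26 cells, against 470.2 and 310.0 in CD10+ MCF10A-CT cells. GRHL3 was near background in both sorted fractions of MC26 (means of 3.75 in CD10+ and 3.89 in CD10- cells), as ELF3 was in CD10+ MC26 cells, so the sizes of these differences are uncertain. All 3 calls were lost without CD10+ MCF10A-CT replicate 2 (adjusted p of 0.147, 0.0954 and 0.0565 for ELF3, GRHL3 and EHF) and without CD10+ MC26 replicate 1 (0.11, 0.109 and 0.0915), and that of EHF also without the other array of either group (0.0592 and 0.0606). ESRP1 differed by -0.67 ± 0.27 without overlap (789 and 662 in MC26 against 1036 and 1275 in MCF10A-CT) and did not pass (adjusted p = 0.103).

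M1B26 set against MC26 among CD10+ cells gave 11.7% of all genes and 3 regulators. ESRP1 was lower in M1B26 by 3.73 ± 0.27 on the log2 scale (a difference of -3.73, 13.3-fold, adjusted p = 8.1e-07) and GRHL1 by 1.31 ± 0.35 (-1.31, adjusted p = 0.0256, 17.97 and 17.98 in M1B26 against 46.7 and 45.5 in MC26). EHF was higher in M1B26 by 2.19 ± 0.50 (4.56-fold, adjusted p = 0.0107). The GRHL1 call was lost without any one of the 4 arrays (adjusted p of 0.0864 to 0.142), and that of EHF without CD10+ MC26 replicate 1 (1.98, adjusted p = 0.106) or CD10+ M1B26 replicate 1 (1.53, adjusted p = 0.144). The ESRP1 call held in all 12 settings. With the replicate block over the sorted arrays, ESRP1 also passed between CD10+ MC26 and MCF10A-CT cells (adjusted p = 0.00402, 35.3% of all genes) and GRHL3 between CD10+ M1B26 and MCF10A-CT cells (adjusted p = 0.000495, 46.1% of all genes). The block lies within the lines, so for comparisons of lines it takes replicate spread out of the error. Its p-values for lines are therefore too small, and the calls it adds there are not taken as evidence.

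Among CD10- cells 26.4% of all genes passed between M1B26 and MCF10A-CT, with 3 regulators lower in M1B26: ELF3 (-3.68 ± 0.74, adjusted p = 0.00318), EHF (-1.63 ± 0.50, adjusted p = 0.0269) and ESRP1 (-1.40 ± 0.27, adjusted p = 0.00227). EHF was lost without CD10- MCF10A-CT replicate 1 (-1.17, adjusted p = 0.15) or either M1B26 array (0.0607 and 0.151), and ELF3 without CD10- MCF10A-CT replicate 2 (-2.57, adjusted p = 0.0575) or CD10- M1B26 replicate 1 (-2.60, adjusted p = 0.0502). ESRP1 held in all 12 settings. Between MC26 and MCF10A-CT, where 20% passed, GRHL3 (-2.13 ± 0.59, adjusted p = 0.0209) and ELF3 (-2.80 ± 0.74, adjusted p = 0.0177) were lower in MC26, GRHL3 being at 10.3 and 18.5 in MC26, near background, against 79.5 and 51.8 in MCF10A-CT. GRHL3 was lost without either MCF10A-CT array (0.077 and 0.0669) or MC26 replicate 1 (0.154), and ELF3 without MCF10A-CT replicate 2 (-1.70, adjusted p = 0.25) or either MC26 array (0.107 and 0.0644). Between M1B26 and MC26 0.0822% of all genes passed and no regulator did, at an unadjusted p under 0.05 only ESRP1 (-0.86 ± 0.27). With the replicate block, which leaves replicate spread out of the error of a line comparison, 5 regulators passed in each comparison with MCF10A-CT. The calls it adds are therefore not taken as evidence of a line difference. ESRP1, OVOL1 and EHF joined for MC26 (39.5% of all genes) and GRHL3 and OVOL1 for M1B26 (45.3%). OVOL1 was higher than in MCF10A-CT in both (1.22 ± 0.52 in MC26 and 1.25 ± 0.52 in M1B26), while the others that joined were lower. With the block ESRP1 also passed between M1B26 and MC26 (adjusted p = 0.00141, 4.47% of all genes).

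**Figure D4:**
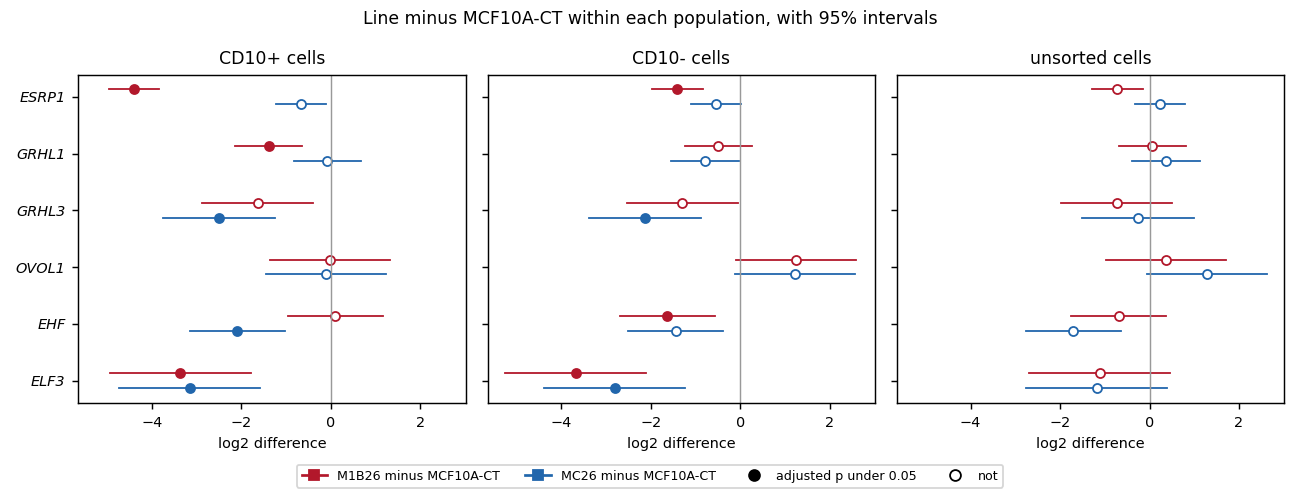
Log2 difference of M1B26 (red) and MC26 (blue) minus MCF10A-CT (x axis) of the 6 regulators among CD10+, CD10- and unsorted cells, with the fitted value as a circle (filled where the adjusted p was under 0.05) and its 95% interval as a line. ELF3 is filled for both lines among CD10+ and CD10- cells, ESRP1 for M1B26 alone, and no circle is filled among unsorted cells.

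In unsorted cells no regulator passed in any comparison of lines, where 0.674% (M1B26 against MCF10A-CT), 0.32% (MC26 against MCF10A-CT) and 0.0986% (M1B26 against MC26) of all genes did, and 1 regulator in each was under an unadjusted p of 0.05. These were ESRP1 between M1B26 and MCF10A-CT (-0.72 ± 0.27, 698 and 554 against 1176 and 896), EHF between MC26 and MCF10A-CT (-1.71 ± 0.50, 75.2 and 42.1 against 229.8 and 151) and ESRP1 between M1B26 and MC26 (-0.96 ± 0.27). Over all genes the shares that passed against MCF10A-CT were thus 13.5% to 26.4% in sorted and under 1% in unsorted cells, and whether handling in the sort has a part in the line differences above was not tested.

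Sorted cells were set against unsorted cells of the same line in comparisons added after the data were seen. In MCF10A-CT, where 22.2% of all genes passed, ELF3 was the only regulator, higher in sorted cells by 2.17 ± 0.64 (4.49-fold, adjusted p = 0.0260, with 50.0 to 236 on the 4 sorted arrays against 28.2 and 24.1 unsorted). The call was lost without either unsorted array (adjusted p of 0.121 and 0.136) and without replicate 2 of CD10- (0.0902) or of CD10+ cells (0.0863). In MC26 no regulator passed (0.822% of all genes did). In M1B26, where 4.21% passed, ESRP1 was lower in sorted cells by 1.96 ± 0.23 (a log2 difference of -1.96, adjusted p = 0.000317). The sorted mean there joins CD10+ cells at 5.77 and CD10- cells at 8.88, against 9.28 in unsorted cells, so this difference, and the 2 below that contain it, hold mostly the low level of the CD10+ cells given above. Averaged over the lines ESRP1 differed by -0.78 ± 0.13 (adjusted p = 0.00155), 1 regulator where 15.2% of all genes passed. The difference of these differences passed for no regulator between MC26 and MCF10A-CT (6.07% of all genes) and for ESRP1 between M1B26 and MCF10A-CT (-2.18 ± 0.33, adjusted p = 0.00267, 11.9% of all genes).

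EHF followed its own order over the groups. CD10+ M1B26 (8.68 ± 0.94, log2, SD, n = 2) and CD10+ MCF10A-CT cells (8.58 ± 0.42) were highest and overlapped each other, then came unsorted (7.55 ± 0.43) and CD10- MCF10A-CT cells (7.34 ± 0.65), unsorted M1B26 cells (6.86 ± 0.95), CD10+ MC26 cells (6.49 ± 0.29), CD10- (5.90 ± 0.28) and unsorted MC26 cells (5.84 ± 0.58) and CD10- M1B26 cells (5.72 ± 0.45). Only the steps below CD10+ MCF10A-CT and below CD10+ MC26 cells were without overlap. EHF was higher in CD10+ than in CD10- cells in each of the 3 lines, with no overlap in any of them.

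GRHL3 was highest in CD10+ (6.25 ± 0.05) and CD10- MCF10A-CT cells (6.03 ± 0.43) and lowest in CD10- (3.89 ± 0.56) and CD10+ MC26 cells (3.75 ± 0.81), and the arrays of every pair of neighbouring groups overlapped. In GRHL1 the highest were CD10- MCF10A-CT cells (6.01 ± 0.06), and the last step, of 0.79, led down to CD10+ M1B26 cells (4.25). OVOL1 spanned 1.64 on the log2 scale, with no comparison passing in the main fit. Its highest mean, in unsorted MC26 cells, came from 14.7 and 92.3 on the 2 arrays, and without the array at 14.7 it passed between MC26 and MCF10A-CT in unsorted cells, a fit in which the lone array at 92.3 is assumed to vary like the other groups. That array pair also held the widest gap in POSTN, a fibroblast marker (log2 3.14 and 10.33), and the part of that in OVOL1 was not tested. The other OVOL1 probe set, with a mean under the level, gave 12.7 and 20.3 in unsorted MC26 cells. Among CD10- cells it gave 7.61 and 3.78 in MC26 and 20.1 and 4.60 in M1B26, against 15.9 and 14.2 in MCF10A-CT. The chosen probe set gave 28.9 and 26.2 in MC26 and 24.3 and 32.9 in M1B26, against 8.46 and 14.9, so the 2 probe sets differed in direction for MC26.

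GRHL2 and ELF5 stayed near background in all 9 groups. GRHL2 ranged between 0.798 and 18.6 and ELF5 between 0.283 and 12.6 over the 18 arrays, with group SDs of up to 1.94 and 1.54 on the log2 scale, and neither was tested. With signals this low, no difference was detectable and none is excluded by these arrays. GRHL2 has 1 probe set, and the other probe set of ELF5 reached no more than 10.9.

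The patterns over the 9 group means were also set against each other, as descriptions over 9 groups that share lines and arrays. ESRP1 and GRHL1 were most alike among the regulators (Pearson r = 0.81), followed by GRHL3 and ELF3 (0.75), while ESRP1 and EHF had an r of -0.39 and OVOL1 and ELF3 one of -0.60. Of all genes tested, CDH1 (0.99), ZNF165 (0.99) and S100A14 (0.99) were most like ESRP1. CMYA5 (0.95), SPEF1 (0.94) and AKNAD1 (0.93) were most like GRHL1, and SESN1, CLK4 and CEBPA (0.98, 0.97 and 0.97) most like GRHL3. For OVOL1 they were XYLB, NPTXR and MON2 (0.93, 0.90 and 0.89), for EHF TM7SF2, CSGALNACT1 and S100A4 (0.96, 0.96 and 0.95) and for ELF3 KYAT1, FOXP4-AS1 and TGFBR3 (0.99, 0.99 and 0.98). CSGALNACT1, an enzyme of chondroitin sulfate synthesis, and S100A4, a calcium-binding protein of motile cells, both rose with EHF between CD10+ and CD10- M1B26 cells (4.41 ± 0.41 and 3.27 ± 0.38), and CDH1 and S100A14 fell with ESRP1 (-3.64 ± 0.24 and -3.10 ± 0.25).

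The epithelial targets were also counted between lines. Between CD10+ M1B26 and CD10+ MCF10A-CT cells 15 of 19 were lower and 1 higher (median -2.16, against 0.31 over all genes, of which 26.4% passed), led by CDH1 (-4.92 ± 0.24), MAL2 (-3.82 ± 0.23) and the receptor gene ERBB3 (-3.98 ± 0.36). Between CD10- M1B26 and CD10- MCF10A-CT cells 6 of 19 were lower and none higher (median -0.45, against 0.23 over all genes, of which 26.4% passed, a share not far from that of the list), led by AP1M2 (-2.03 ± 0.25), CLDN7 (-2.54 ± 0.32) and the plakin PPL (-3.32 ± 0.44). For MC26 against MCF10A-CT 6 of 19 were lower among CD10- and 5 among CD10+ cells, and none was higher, beside 20% and 13.5% of all genes that passed in either direction. SNAI2, the repressor that basal mammary cells express, was higher than in MCF10A-CT among CD10- cells of M1B26 (1.17 ± 0.25, adjusted p = 0.0039) and of MC26 (1.03 ± 0.25, adjusted p = 0.0110). This was not particular to CD10- cells. In CD10+ cells it was at log2 values of 11.25 and 11.49 in M1B26 and 11.07 and 10.87 in MC26, against 10.12 and 9.83 in MCF10A-CT. Unsorted cells gave 10.67 and 11.03 in M1B26 and 11.04 and 11.38 in MC26, against 10.57 and 10.09.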

How the data were processed

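The 18 samples were each hybridised to an array of the Affymetrix HG-U133 Plus 2.0 design. For every probe set the authors deposited an intensity on a linear scale, after scaling each array to the same median (16.7). The submitters' processing notes name Affymetrix Expression Console and MAS5 without versions, whereas the methods name RMA with quantile normalization. The arrays share their median but not their upper quartile (95.1 to 123.6), unlike values made alike by quantile normalization. The summary step itself rests on the notes alone. No read depth exists for arrays, and their number limits the precision. Intensities were taken as log2(intensity + 1), a gene was read by its probe set of highest mean, and genes with a mean over the median of all non-control probe sets (log2 3.93) were tested. A linear model with 9 group means was fitted to 12171 genes with limma 3.58.1 in R 4.3.3 (eBayes with trend), with Benjamini-Hochberg adjustment over all genes and a threshold of 0.05. It served 17 comparisons and 5 added after the data were seen. Every adjusted p is from limma unless another test is named. Promoter windows and figures were made with Python 3.11.15.

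The genes named are the 9 regulators, the 3 genes most like each by Pearson r over the group means, and up to 6 genes of smallest p per list. Members and lists were chosen with earlier results of these data known. Alternatives were a pseudocount of 16, quantile normalization, centring, no filter, the mean of all probe sets, a replicate block, a fit on the compared arrays alone, and each array left out. The replicate numbers were taken to pair the CD10+ and CD10- arrays of a line, because the deviations of same-numbered sorted arrays correlated in all 3 lines (0.635 in MCF10A-CT, 0.361 in MC26, 0.185 in M1B26), while unsorted arrays did not follow (-0.01 to 0.12). The paired fit over the sorted arrays had 3 residual degrees of freedom and an infinite prior. The variance of each gene there came wholly from the trend pooled over genes. Its p-values, unlike those of the main fit, therefore do not measure a gene's own spread between arrays.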

Additional observations from a re-analysis of the deposited data

Results flagged for a closer look

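The difference between CD10+ and CD10- cells for ESRP1 was not the same in the 3 lines, by a test of the difference itself. It was further below 0 in M1B26 than in MCF10A-CT by a log2 value of -2.997 (limma, adjusted p = 0.000995) and than in MC26 by -2.87 (adjusted p = 0.00122). Both of the compared differences, -0.12 in MCF10A-CT and -0.24 in MC26, had overlapping arrays.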

How the results depend on the processing

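No result turned its direction. Of the values of single genes that passed, 297 kept their side of the threshold under an alternative and 54 did not. With the replicate block over the sorted arrays alone, the number of regulators that passed was 1 in place of 0 for CD10 in MCF10A-CT, 2 and 3 in place of 1 for the difference of M1B26 from MCF10A-CT and from MC26, and among CD10- cells 5 in place of 2 (MC26 against MCF10A-CT), 5 in place of 3 (M1B26 against MCF10A-CT) and 1 in place of 0 (M1B26 against MC26). With the replicate block over all arrays, where the unsorted arrays share only a number, it was 2 in place of 1 for both of those differences, 1 in place of 0 for unsorted MC26 against MCF10A-CT, and for sorted against unsorted cells 1 in place of 0 (MC26 against MCF10A-CT) and 2 in place of 1 (M1B26 against MCF10A-CT). With the mean over all probe sets EHF and ELF3 fell under the level and 4 regulators were tested, and 1 passed for CD10 in M1B26 (in place of 3), for the average (2), among CD10- cells for MC26 (2) and M1B26 (3) against MCF10A-CT, and in the 3 comparisons among CD10+ cells (3 each), and 0 for sorted against unsorted MCF10A-CT (1). On the compared arrays alone it was 2 in place of 1 for the difference of M1B26 from MC26, 1 in place of 2 for CD10- MC26 against MCF10A-CT, and 0 in place of 1 for sorted against unsorted MCF10A-CT, where centring gave 2. The average without M1B26 gave 0 in place of 2. With the block over the sorted arrays the share of all genes rose too. It went from 1.38% to 11.5% for the difference of M1B26 from MCF10A-CT and from 1.27% to 10.9% for that from MC26. For comparisons of lines, the block leaves replicate spread out of the error. Shares of all genes under the other settings here and below are not given, so those counts cannot be set beside all genes.

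With each array of the 2 or more groups compared left out in turn, the number was 2 throughout for CD10 in M1B26, 1 to 2 for the average, 0 to 1 for unsorted MC26 against MCF10A-CT, 0 to 1 and 1 to 2 for CD10- MC26 and M1B26 against MCF10A-CT, 0 to 2 and 1 to 3 for CD10+ MC26 and M1B26 against MCF10A-CT, 1 to 2 for CD10+ M1B26 against MC26, 0 to 1 for sorted against unsorted MCF10A-CT and 1 to 2 for its difference from M1B26. An arm left with 1 array is assumed to vary like the other groups. Without an array outside the comparison, which changes only the shared spread, it was 2 or 3 for CD10 in M1B26, 2 or 3 for CD10- MC26, and 3 or 4 for CD10- and for CD10+ M1B26 against MCF10A-CT. The cause of these changes was not tested. With 2 arrays a group, differences of genes near background are poorly bounded.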
